A study of Mus musculus with 2 samples.

Results

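Transforming growth factor beta (TGF-beta) signalling was examined in regulatory T cells (Treg cells) of the colon lamina propria through 10 genes: the ligands Tgfb1 and Tgfb3, the ligand carrier Lrrc32, the receptors Tgfbr1 and Tgfbr2, the signal transducers Smad2, Smad3 and Smad4, the inhibitor Smad7 and the co-repressor Ski. They were taken by gene name from a deposited table of 55246 loci, and all 10 were found. The table holds 1 RNA sequencing library of each of 2 genotypes, both from female mice. WT is wild type, and Exon2KO carries a Foxp3 allele without exon 2, called Foxp3∆2 in the series title. Foxp3 is the transcription factor that defines Treg cells. Age, strain background, sorting scheme and whether mice were pooled are not given in the sources used here. Neither genotype has a replicate, so sample-to-sample variation is unmeasured for every value below, and every interval covers counting error only. Reads are not independent molecules, which those intervals do not allow for.

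TGF-beta is made as a latent complex in which the mature ligand is held by its own propeptide. Treg cells display this complex on their surface bound to GARP, the protein encoded by Lrrc32, and integrins release the active ligand from it. The active ligand joins the type II receptor (Tgfbr2) and the type I receptor (Tgfbr1), which phosphorylate SMAD2 and SMAD3. These bind SMAD4 and enter the nucleus, where SKI and the closely related SnoN repress them, while SMAD7 acts back on the receptors. In the gut TGF-beta is known for inducing Foxp3 in CD4 T cells and CD103, the integrin encoded by Itgae, in mucosal T cells.

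Depth was 16281133 gene-assigned reads for WT and 15412425 for Exon2KO. Levels are in CPM, which are counts relative to library size after scaling by the trimmed mean of M values (TMM), with exact 95% Poisson intervals, and 3 reads corresponded to 0.191 CPM in WT and 0.188 CPM in Exon2KO. The sum of 10 Treg markers was 13168 CPM in WT and 15994 in Exon2KO. By the rule given below, 1 of them was called higher and 2 lower, where 8.53% and 7.41% of all tested genes were. Foxp3 had 6991 reads in WT and 20946 in Exon2KO, whereas Ikzf2, which encodes Helios, had 8476 and 440, and the receptor gene Tnfrsf18 had 34363 and 11626. The Foxp3 count over the whole gene does not check the loss of 1 exon. Cd4 had 4593 and 5367 reads, and Cd3e 5154 and 5262. The summed level of 12 T cell identity genes was 8661 CPM in WT and 6669 in Exon2KO. Markers of other cells were present as well. The sum of 10 B and plasma cell genes was 62780 and 53360 CPM, and that of 11 epithelial genes was 80.5 and 371 CPM, with 7 of the 10 compared called higher, beside 8.53% of all tested genes. Epcam (782 and 609 reads) and Muc2 (41 and 21) were lower beyond counting error. The sums of 12 myeloid genes (48.3 and 56.7 CPM) and of 10 stromal and endothelial genes (75.6 and 71.9 CPM) were low. Of the 8 stromal and endothelial genes compared, 3 were called higher and 0 lower, beside 8.53% and 7.41% of all tested genes. Most reads of that list were from Pecam1 (917 and 834). The sum of 8 CD8 and cytotoxic genes was 3197 and 4054 CPM, most of it Gzmb (43499 and 63649 reads). Of these 8, 3 were called lower and 1 higher, where 7.41% and 8.53% of all tested genes were. The 3 were Gzma (5153 and 164 reads), Prf1 (87 and 27) and Cd8a (23 and 6), and the 1 was Ncr1 (0 and 10). The part of these cells in the results below was not tested. In bulk RNA, a smaller number of cells of a type cannot be told apart from less RNA in each such cell.

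Of the 10 members, 1 differed past 2-fold. Lrrc32 was 4.83-fold lower in the Exon2KO library (95% counting interval 4.40 to 5.32), whereas the other 9 members lay between log2 ratios of -0.74 and 0.65 (Exon2KO over WT). A gene was called when it had at least 10 reads over both libraries, its ratio was at least 2-fold and its 95% Clopper-Pearson counting interval excluded equality. All 10 members had enough reads to be compared. By this rule 1 member was called lower and 0 higher, where 7.41% of 17363 tested genes were called lower, 8.53% higher and 15.9% in either direction. Without the fold requirement, the interval excluded equality for 8 of 10 members, 3 higher and 5 lower, beside 47.3% of all tested genes. That share depends on read depth, which was not matched between the members and all tested genes. The members' median log2 ratio was -0.14, and that of all tested genes was 0.0035. The number of members called is thus not above the background, and what follows describes each gene rather than the group.

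**Figure D1:**
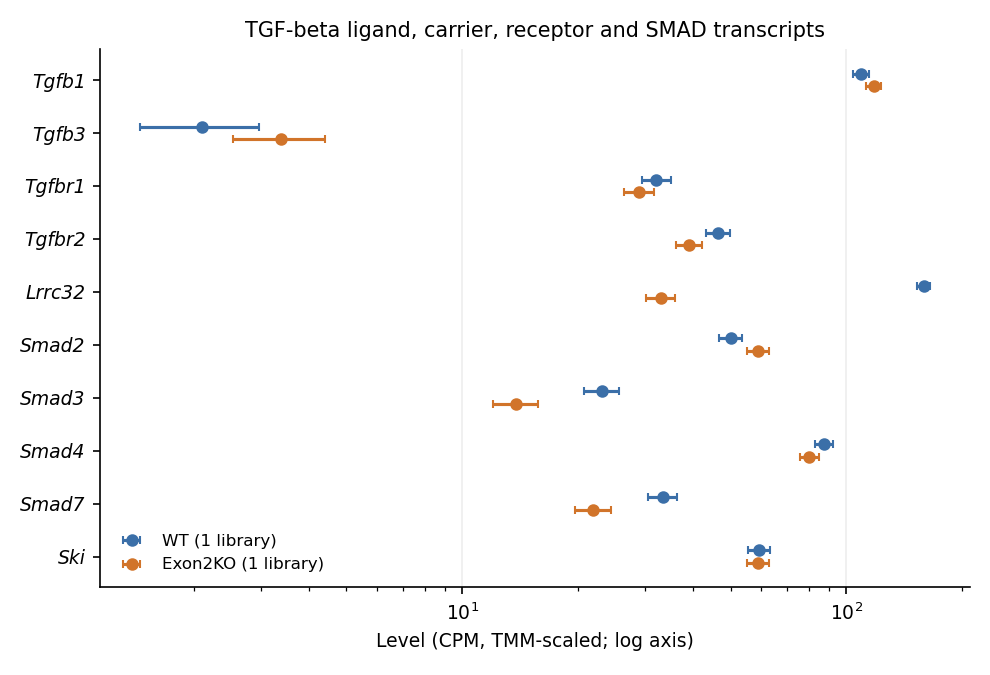
Level of each of the 10 members in the WT library (blue) and the Exon2KO library (orange), in CPM on a log axis; bars are exact 95% Poisson intervals. Lrrc32 moves from 159 to 32.9 CPM, while the other members differ by at most 1.67-fold.

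Lrrc32 (ENSMUSG00000090958, chromosome 7, 98489283 to 98502181 on the plus strand, GRCm38) encodes GARP, the anchor of latent TGF-beta on Treg cells and a gene raised by activation of these cells. It had 2496 reads in WT and 526 in Exon2KO, or 159 CPM (153 to 165) and 32.9 CPM (30.1 to 35.8). The intervals of the libraries were far apart. The log2 ratio was -2.27 (-2.41 to -2.14), and 307 of the 17363 tested genes (1.77%) had a lower one. GARP is also known from platelets and endothelium. The sum of 5 platelet genes was 58 reads in WT and 71 in Exon2KO, with Ppbp at 0 reads in both. In that list Gp9 had 45 and 48 reads, Itga2b 13 and 8, Pf4 0 and 2, and Gp1ba, the 1 gene called (higher), 0 and 13. Of the endothelial genes, Cdh5 (0 and 15 reads) and Vwf (5 and 31) were called higher. Pecam1 (917 and 834) was slightly lower and not called. The part of platelets and endothelium in the Lrrc32 difference was not tested. In the authors' deposited table Lrrc32 has a log2 fold change of -2.27 with an adjusted p-value of 1.79e-05, and the adjusted p-values of the other 9 members range from 0.517 to 1. The test behind those values is not given in the sources used here. Lrrc32 lost its call when edgeR's exact test was given an assumed relative spread among samples (biological coefficient of variation, BCV) of 0.4 (adjusted p = 0.307).

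Tgfb1 (ENSMUSG00000002603, chromosome 7, 25687002 to 25705077, plus strand), the main TGF-beta of lymphocytes, differed by only 1.08-fold while its carrier was far lower. It had 1714 reads in WT and 1884 in Exon2KO, at 109 CPM (104 to 115) and 118 CPM (113 to 123). The log2 ratio was 0.11 (0.01 to 0.20), which barely cleared counting error. B9d2 ends within 2 kb before Tgfb1 on the same strand and went the other way, at -0.29 (-0.38 to -0.20). Because both genes were counted in the same libraries, their relation to each other does not depend on the scaling. Per kilobase (FPKM, the authors' deposited values), Tgfb1 stood at 0.638 of Lrrc32 in WT and at 3.33 times Lrrc32 in Exon2KO. This ratio rose 5.21-fold (exact 95% interval 4.64 to 5.86).

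Tgfb3 (ENSMUSG00000021253, chromosome 12, 86056745 to 86079041, minus strand), a second ligand of the same receptors, was near the limit of what this depth resolves. It had 33 reads in WT and 54 in Exon2KO, or 2.10 CPM (1.45 to 2.95) and 3.38 CPM (2.54 to 4.41), and these 2 intervals overlapped. The log2 ratio of 0.65 had an interval of 0.03 to 1.35. Ttll5 overlaps Tgfb3 on the opposite strand, with 101 and 69 reads. The use of strand in counting is not given in the sources used here, so reads of the shared stretch are uncertain. Relative to Tgfb1, Tgfb3 stood 1.49 times as high in Exon2KO as in WT, with an interval that included equality (0.943 to 2.38).

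The receptors differed little. Tgfbr1 (ENSMUSG00000007613, chromosome 4, 47353222 to 47414931, plus strand), the type I receptor kinase, had 503 reads in WT and 462 in Exon2KO, and its log2 ratio of -0.15 (-0.33 to 0.04) was within counting error. Tgfbr2 (ENSMUSG00000032440, chromosome 9, 116084293 to 116175360, minus strand), the ligand-binding type II receptor, had 729 and 623 reads. Its level was 46.4 CPM (43.1 to 49.9) and 39.0 CPM (36.0 to 42.1), a log2 ratio of -0.25 (-0.41 to -0.10). Both receptors were therefore within 1.33-fold of equality by the wider end of their counting intervals.

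The SMAD genes did not move together. Smad2 (ENSMUSG00000024563, chromosome 18, 76241580 to 76305731, plus strand) had 785 reads in WT and 942 in Exon2KO, at 50.02 CPM (46.6 to 53.6) and 58.9 CPM (55.2 to 62.8), a log2 ratio of 0.24 (0.10 to 0.37). Smad3 (ENSMUSG00000032402, chromosome 9, 63646767 to 63757994, minus strand), which unlike the main form of SMAD2 binds DNA directly, went the other way. It had 363 and 221 reads, at 23.1 CPM (20.8 to 25.6) and 13.8 CPM (12.1 to 15.8), and was 1.67-fold lower (1.41 to 1.99), short of the 2-fold threshold. The 2 genes are the alternative substrates of the same receptor. Per kilobase, Smad2 stood at 3.38 times Smad3 in WT and 6.66 times in Exon2KO, a 1.97-fold difference (1.62 to 2.40) that is free of the library scaling. Smad4 (ENSMUSG00000024515, chromosome 18, 73639009 to 73703780, minus strand), the partner that both share, had 1373 and 1282 reads and a log2 ratio of -0.13 (-0.24 to -0.01).

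The inhibitors also differed from each other. Smad7 (ENSMUSG00000025880, chromosome 18, 75367529 to 75395935, plus strand), which blocks the receptors and is itself a target of the pathway, had 522 reads in WT and 351 in Exon2KO. Its level was 33.3 CPM (30.5 to 36.2) and 21.95 CPM (19.7 to 24.4), 1.51-fold lower (1.32 to 1.74). Relative to Smad4 it stood at 0.312 per kilobase in WT and 0.225 in Exon2KO, or 0.72 times its former share (0.615 to 0.843). Ski (ENSMUSG00000029050, chromosome 4, 155154075 to 155222592, minus strand), the nuclear co-repressor of SMAD complexes, had 929 and 943 reads, at 59.2 CPM (55.4 to 63.1) and 59.0 CPM (55.3 to 62.9). Its log2 ratio of -0.01 had an interval of -0.14 to 0.13, the nearest to 0 of the members.

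**Figure D2:**
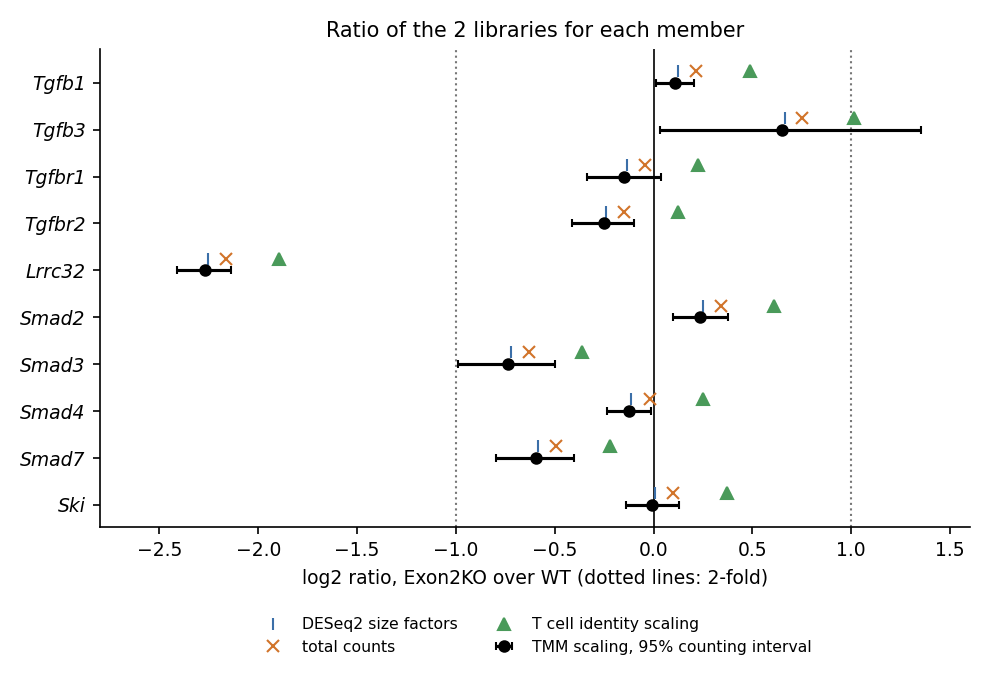
log2 ratio of Exon2KO over WT for each member (black, with 95% counting intervals under TMM scaling) and the same ratio under 3 other scalings; dotted lines mark 2-fold. Lrrc32 is near -2.27 with its whole interval past 2-fold, and T cell identity scaling moves every member to the right by about the same step, which brings Tgfbr1, Tgfbr2, Smad4 and Ski from below 0 to above it.

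The sign of 4 member ratios depended on the scaling. Total counts moved the median ratio over the 17363 tested genes to 0.108 (log2), and scaling to the summed T cell identity genes raised it to 0.377. Under the latter, Tgfbr1, Tgfbr2, Smad4 and Ski turned from negative to positive log2 ratios of 0.23, 0.12, 0.25 and 0.37, in step with that shift. Ski also turned positive with total counts (0.10) and DESeq2 size factors (0.01). Lrrc32 stayed lower at -1.89, Smad3 at -0.36 and Smad7 at -0.22. Tgfb1, Smad2 and Tgfb3, positive under each scaling tried, stood at 0.49, 0.61 and 1.01, and Tgfb3 was called under T cell identity scaling.

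Because FPKM values account for gene length, they give the order of the members within a library. In WT the order from the top was Lrrc32 (33.8 FPKM), Smad4 (23.5), Tgfb1 (21.6), Smad2 (14.0), Ski (10.6), Smad7 (7.32), Tgfbr2 (5.65), Tgfbr1 (4.88), Smad3 (4.15) and Tgfb3 (0.618). Counting intervals overlapped between Smad4 and Tgfb1, between Tgfbr2 and Tgfbr1, and between Tgfbr1 and Smad3, so those neighbours were not separated. In Exon2KO the carrier had moved from the first place to the fifth. Tgfb1 (23.5 FPKM) and Smad4 (21.7) led there, with overlapping intervals, ahead of Smad2 (16.7), Ski (10.7) and Lrrc32 (7.05). Smad7 (4.88), Tgfbr2 (4.78) and Tgfbr1 (4.44) overlapped in turn, above Smad3 (2.51) and Tgfb3 (1.00).

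Other genes of the pathway were taken from lists chosen with earlier results of these data known. Of 80 such genes 7 had no read in either library and 66 had enough reads to be compared. Of these 66, 8 were called higher and 10 lower (27.3% in all, beside 15.9% of all tested genes), and the median log2 ratio was 0.09. Scaling to the T cell identity genes, which made 76.0% of all calls over the tested genes higher, gave 14 higher and 6 lower in the lists. It moves log2 ratios up by about 0.377, so pathway ratios below 0 by less than that change sign with it. With an assumed BCV of 0.4 the 18 calls fell to 1, as those over all tested genes fell from 2767 to 164.

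Latent TGF-beta is stored and activated by a small set of proteins. Of 12 genes in this list 9 were compared, of which 4 were called lower and 0 higher, where 7.41% of all tested genes were called lower and 8.53% higher. The list was chosen with earlier results of these libraries known. The median was -0.33, and 4 of the 9 had ratios above 0. Itgb8, the beta chain of the integrin that frees TGF-beta from GARP on Treg cells, had 680 reads in WT and 88 in Exon2KO, 7.87-fold lower (log2 ratio -2.95, -3.31 to -2.65). Its alpha chain Itgav had 3755 and 3038 reads and a log2 ratio of only -0.33 (-0.40 to -0.26). Per kilobase, Itgb8 stood at 0.176 of Itgav in WT and at 0.0281 in Exon2KO. Nrros, which encodes the GARP-like carrier of latent TGF-beta on myeloid cells, had 913 and 227 reads (-2.03, -2.25 to -1.82). The 12 myeloid genes summed to 758 reads in WT and 906 in Exon2KO. Of the 10 compared 0 were called, beside 15.9% of all tested genes, which is no result about so short a list. Among the 12, Lyz2 had 317 and 405 reads, Cd68 168 and 243, Csf1r 14 and 6 and Adgre1 1 and 2, and Itgax had 0 in both. The part of myeloid cells in the Nrros difference was not tested. Tgfb2 (9 and 1 reads) and the matrix carrier Ltbp3 (18 and 6 reads) were the other 2 called lower, both at few reads. Another matrix carrier, Ltbp4, chosen after its value was seen, had 99 and 132 reads (0.38, 0.00 to 0.78).

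Furin, the protease that cuts the TGF-beta precursor, went the other way. It had 2633 reads in WT and 4710 in Exon2KO, 1.76-fold higher (log2 ratio 0.81, 0.74 to 0.88), below the threshold for a call.

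**Figure D3:**
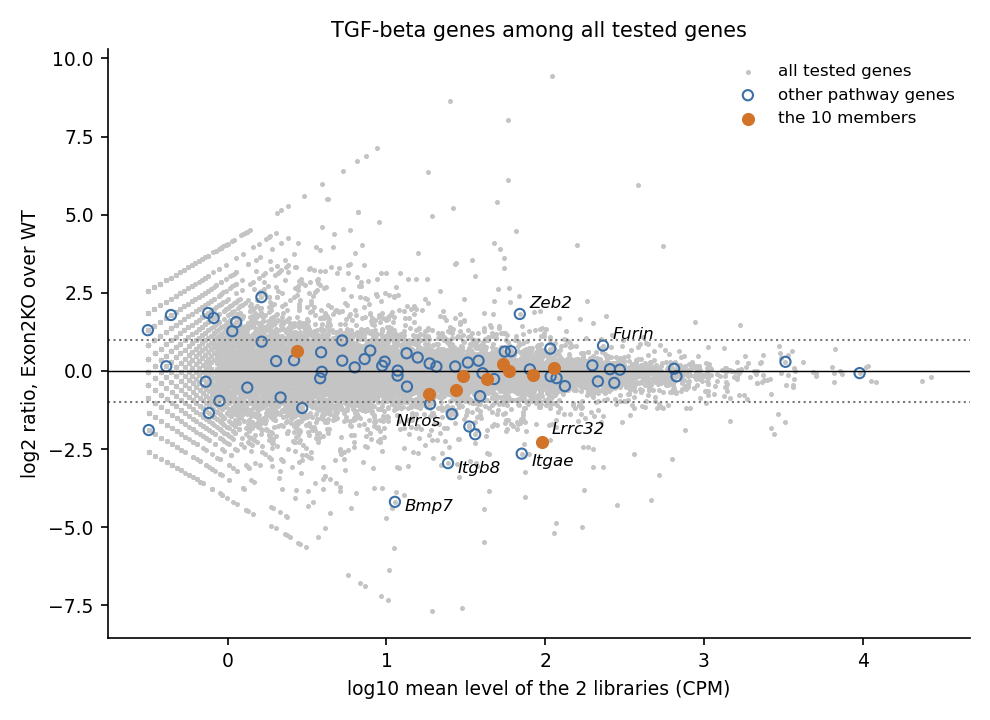
log2 ratio of Exon2KO over WT against the log10 mean level in CPM for all 17363 tested genes (grey), the 66 other pathway genes compared (blue circles) and the 10 members (orange). Lrrc32, Itgae, Itgb8, Nrros and Bmp7 lie below the lower 2-fold line, at 2-fold lower or more, and the other members lie between the lines.

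To show the upstream DNA of these genes, the 250 bases before the annotated start are given for the ligand, for the receptor-regulated SMAD that was lower and for a carrier called lower. The sequences are from RefSeq (GRCm38.p6), 5′ to 3′ on the strand of the gene. The promoter table matched 5 of the 10 members, and these 3 windows end at the start of the gene as deposited. They lie at chr7:25686752-25687001 (plus) for Tgfb1, chr9:63757995-63758244 (minus) for Smad3 and chr16:32165595-32165844 (minus) for Nrros. Capitals mark CAGAC on either strand, the core of the element that SMAD3 and SMAD4 bind.
Tgfb1: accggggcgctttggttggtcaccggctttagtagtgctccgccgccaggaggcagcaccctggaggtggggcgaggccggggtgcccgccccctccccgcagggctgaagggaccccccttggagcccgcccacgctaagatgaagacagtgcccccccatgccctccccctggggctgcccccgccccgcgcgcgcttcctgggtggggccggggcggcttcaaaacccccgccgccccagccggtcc
Smad3: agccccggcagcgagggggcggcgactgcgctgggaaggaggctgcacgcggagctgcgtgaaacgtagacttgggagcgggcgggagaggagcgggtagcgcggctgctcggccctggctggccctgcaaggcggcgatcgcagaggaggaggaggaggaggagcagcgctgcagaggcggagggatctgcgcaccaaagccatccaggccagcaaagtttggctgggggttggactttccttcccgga
Nrros: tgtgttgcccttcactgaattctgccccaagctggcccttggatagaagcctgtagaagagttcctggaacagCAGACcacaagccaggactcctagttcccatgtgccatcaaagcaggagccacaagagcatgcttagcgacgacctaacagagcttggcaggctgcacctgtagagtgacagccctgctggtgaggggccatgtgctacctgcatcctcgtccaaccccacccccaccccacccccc

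CAGAC occurred once in the Nrros window and in neither of the others. Over 32817 upstream windows of the same length, 42.2% held it, so a match is common. The forkhead core TGTTTAC, searched on both strands, was in none of the 3 windows and in 3.16% of all. GC content was 75.2% for Tgfb1, 69.2% for Smad3 and 58.4% for Nrros, against a median of 52.4% over all windows. These letters describe the windows alone, since factor binding was not measured here.

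Of 14 co-receptors and receptor regulators, all compared, 3 were called higher and 2 lower, beside 8.53% and 7.41% of all tested genes, with a median of 0.14. Bambi, a decoy receptor that blocks TGF-beta family signalling, had 586 reads in WT and 228 in Exon2KO (-1.38, -1.62 to -1.17), and Nedd4l, a ubiquitin ligase for activated SMADs, had 65 and 28. The co-receptor genes Tgfbr3 (17 and 35 reads) and Eng (7 and 45) and the adaptor Dab2 (8 and 28) were called higher. Tgfbr3 was just inside the threshold at 2.02-fold. These 3 had few reads. The endothelial genes Cdh5 and Vwf were also called higher, while Pecam1, the endothelial marker with the most reads, had a log2 ratio of -0.16 (-0.30 to -0.03). The summed stromal and endothelial level (75.6 and 71.9 CPM), most of it Pecam1, was within counting error. The part of such cells was not tested. Among the abundant genes, the feedback inhibitors Pmepa1 (1798 and 1627 reads) and Ldlrad4 (3936 and 4170), the receptor-binding protein Fkbp1a (2918 and 3365) and the deubiquitinase Usp15 (1235 and 1302) lay between log2 ratios of -0.17 and 0.18.

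Of the 11 compared partners and nuclear regulators of SMADs, 1 was called higher and 0 lower (median 0.14), a share near the background of 8.53% higher and 7.41% lower. Zeb2, a zinc finger repressor that binds SMADs, had 477 reads in WT and 1725 in Exon2KO, 3.55-fold higher (1.82, 1.68 to 1.98). Its relative Zeb1 did not follow, at 4568 and 4788 reads (0.04, -0.02 to 0.10). Skil, which encodes SnoN, had 2437 and 1773 reads (-0.49, -0.57 to -0.40). In contrast to its homologue Ski it was thus lower beyond counting error, though not called. Tgif1 (-0.17), a SMAD co-repressor with 11165 and 10096 reads, and Strap (-0.23, 1997 and 1735 reads) were slightly lower, and the co-activator Crebbp was higher, with 1279 and 2139 reads (0.71, 0.61 to 0.82).

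The activin and bone morphogenetic protein (BMP) branch uses the same SMAD4. Its receptor and SMAD list had 9 compared genes, with 2 called higher (Acvr1 at 5 and 21 reads, Smad6 at 2 and 12) and 0 lower, where 8.53% of all tested genes were called higher and 7.41% lower. Acvrl1, a receptor of endothelium, was just outside the threshold at 1.999-fold with 55 and 112 reads. Among 5 compared ligands and antagonists, 2 were called higher (Bmp4 at 4 and 20 reads, Gdf15 at 9 and 25) and 1 lower. The latter, Bmp7, was the pathway gene with the lowest ratio, at 338 reads in WT and 17 in Exon2KO, 20.3-fold lower (log2 ratio -4.19, -5.14 to -3.64). The 4 genes called higher in this branch had at most 25 reads in either library. Of the 6 genes of TAK1 and other non-SMAD signalling, 0 were called, and with 15.9% of all tested genes called in either direction this is no result about so short a list. Mapk14, the stress kinase p38 alpha, had 749 and 1182 reads (0.63, 0.50 to 0.77), the TAK1 adaptor Tab2 had 687 and 1077 (0.62, 0.48 to 0.76), and the small GTPase Rhoa had 4833 and 3782 (-0.38, -0.44 to -0.32).

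Genes known to respond to TGF-beta did not move as a block. Of 17 compared genes, which include the members Smad7 and Ski, 3 were called lower and 0 higher, and the median was -0.23. Ratios were below 0 for 12 of the 17 and above 0 for 5. Beyond counting error, 9 were lower and 4 higher, where 47.3% of all tested genes were beyond it. Over all tested genes, 7.41% were called lower and 15.9% in either direction, so 3 of 17 is read as no result about the list, and the values are given gene by gene. Itgae, the CD103 chain that binds E-cadherin and a well-known TGF-beta target of T cells, had 1926 reads in WT and 312 in Exon2KO, 6.29-fold lower (log2 ratio -2.65, -2.83 to -2.48). Rgs16, a regulator of chemokine receptor signalling, had 809 and 239 reads (log2 ratio -1.78), and Cd101, an inhibitory surface protein, had 400 and 195 (-1.06, -1.32 to -0.81), just past the threshold at 2.09-fold. The targets that were not called lay on both sides of equality. Junb, the target with the most reads, had 153539 and 149169 (-0.07), Cdkn1a 9926 and 10624 (0.07) and Id2 45988 and 57384 (0.29). Id3, like Id2 an inhibitor of E protein transcription factors, was lower beyond counting error, at 776 and 451 reads (-0.81, -0.98 to -0.64), as was the matrix gene Tgfbi, at 44 and 24 (-0.85, -1.68 to -0.15). Id1 (96 and 155 reads; 0.65, 0.29 to 1.05) and Ctgf (169 and 256 reads; 0.57, 0.29 to 0.86) were higher beyond counting error. Cdkn2b was within it, at 65 and 56 reads. Of the feedback genes among the targets, Smad7, Skil and Pmepa1 had log2 ratios of -0.60, -0.49 and -0.17, beyond counting error and short of 2-fold, while Ldlrad4 (0.06, -0.01 to 0.12) and Ski were within counting error.

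**Figure D4:**
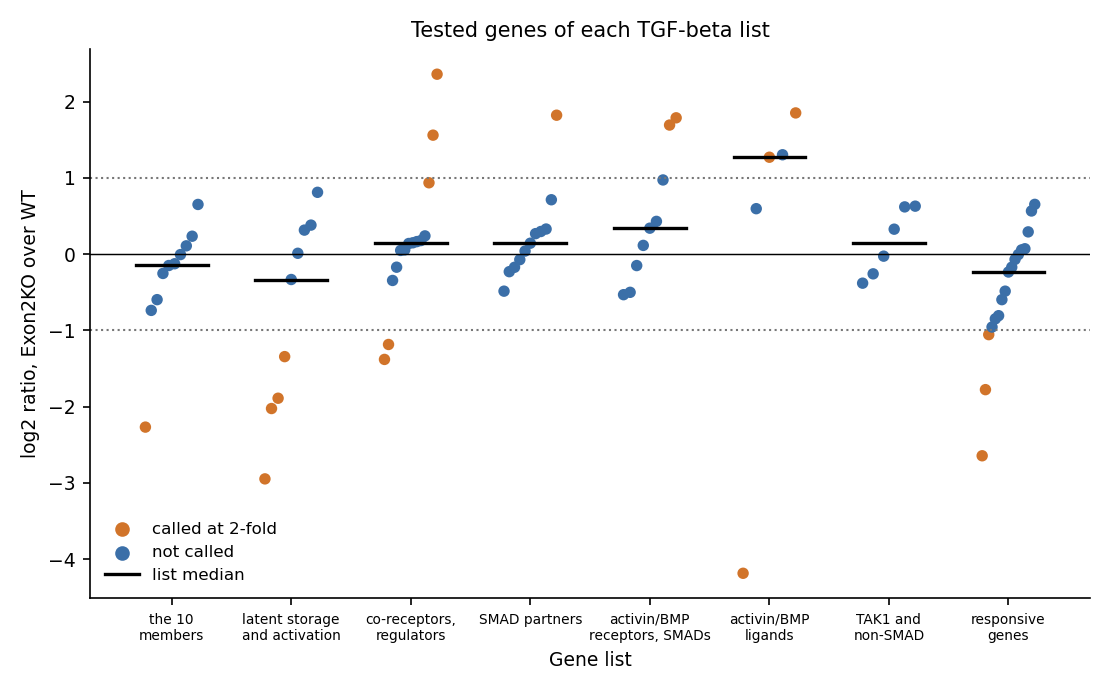
log2 ratio of Exon2KO over WT for each compared gene of the members and the 7 pathway lists; orange points were called at 2-fold, black bars are list medians and dotted lines mark 2-fold. Lists share genes, and the calls in the storage and activation list (4) and among responsive genes (3) are all on the lower side. Points include a prior count of 2, so a called gene with few reads (Tgfbr3) can lie inside the dotted lines.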

How the data were processed

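RNA sequencing of colonic Treg cells gave 1 library for WT and 1 for Exon2KO. Deposited by the authors were unnormalized counts for each gene, FPKM values, a scaled count signal (not used here) and a log2 fold change with p-values. The submitters' processing notes name HISAT2 2.0.5, StringTie 1.3.3b, featureCounts 1.5.0-p3 and DESeq2 1.16.1 on mm10, without their roles. The deposited FPKM equalled those from the counts, gene lengths and totals times 1.03 (WT) and 0.969 (Exon2KO).

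Counts were scaled with TMM in edgeR 4.0.16 (R 4.3.3), with factors of 0.964 for WT and 1.04 for Exon2KO. A prior count of 2 enters each log2 ratio but not its Clopper-Pearson interval. Intervals for the ratio of 2 genes are exact conditional ones (scipy 1.17.1). The functions were tested on simulated data. The groups have no replicates, so calls compare 2 libraries, not genotypes. Coordinates of 9 of the 10 members are identical in GENCODE M21 (GRCm38); Smad2 has another end there.

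The members and gene lists were chosen with earlier results of these data known. Named were all members and, from the pathway lists, called genes, those reaching 1000 reads in either library, and defining genes. Ltbp4, Acvrl1, Id1, Id3, Ctgf, Tgfbi, Cdkn2b and single cell type markers were named outside this rule, with their values known.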

Additional observations from a re-analysis of the deposited data

How the results depend on the processing

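Lrrc32 was the 1 member called under TMM. It was also the 1 called with DESeq2 size factors, total counts, upper quartile, TMM without immunoglobulin, mitochondrial and haemoglobin genes, other read filters, a 4-fold threshold, an assumed BCV of 0.2 and the adjusted exact binomial test. T cell identity scaling called 2 members (Lrrc32 and Tgfb3) and a 1.5-fold threshold 4 (with Smad3, Smad7 and Tgfb3), whereas an assumed BCV of 0.4 called 0. Pathway genes called, 18 under TMM, numbered 11 with at least 50 reads, 27 at 1.5-fold, 9 at 4-fold, and 8 and 1 with an assumed BCV of 0.2 and 0.4. All genes called, 2767 under TMM, numbered 1418 with at least 50 reads, 4157 at 1.5-fold, 1252 at 4-fold, and 1115 and 164 with an assumed BCV of 0.2 and 0.4. T cell identity scaling made 76.0% of these calls higher, against 53.5% under TMM, and 14 of 20 pathway calls higher, against 8 of 18. Of 80 recomputed member ratios 70 lay within the counting interval given in the report, and the 10 that did not came from total counts (Tgfb1, 0.22) or T cell identity scaling. The order of members by FPKM was that by TPM in both libraries. Depth limits Tgfb3 and the pathway genes with few reads. No paired analysis was possible because each genotype has 1 library, and for the same reason no library could be left out.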

Other observations

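Values of the genes around Lrrc32 are given as a description. Within 500 kb of it the table lists 12 other protein-coding genes, of which 8 had enough reads to be compared. Of these 8, 0 were called lower and 1 higher, where 7.41% and 8.53% of all tested genes were, so the count is near the background. The nearest of them, Emsy, which encodes a chromatin protein, had 1070 reads in WT and 1258 in Exon2KO (log2 ratio 0.21, 0.09 to 0.33), and Thap12 had 1211 and 1479 (0.26, 0.15 to 0.37). Acer3, a ceramidase gene, had the lowest ratio of the 8, with 347 and 228 reads (-0.63, -0.88 to -0.39). The 1 gene called higher was Omp, at 2 and 11 reads. These neighbours were chosen after the value of Lrrc32 was seen.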
